A study of Mus musculus and Rattus norvegicus with 53 samples.

Results

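The 39 genes described here encode parts of the lysosome and of the autophagy machinery. They were chosen by name, as the rows of the mouse count files that carry their symbols, and all 39 were found among the 24016 mouse genes listed. By role they are 8 cathepsins, 6 glycan-degrading enzymes, 5 lipid-handling enzymes and cofactors, 4 lysosomal membrane proteins, the transcription factor Tfeb, the autophagy receptor Sqstm1, 5 members of the ATG8 family, 6 genes of ATG8 and ATG12 conjugation and 3 genes of autophagy initiation. The symbols were taken as the files give them, and coordinates of the genes are those of mouse build mm9.

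The study asked how Schwann cells (SCs), the glia of peripheral nerves, change after a nerve is cut, and whether SCs in the wound differ from those further down the nerve. SCs were sorted by tdTomato fluorescence from sciatic nerves of mice of both sexes, 6 to 8 weeks old, labelled with the genotype tdTomato+. According to the study's methods these mice carry a Cre transgene active in the neural crest lineage and a Rosa26 tdTomato reporter, so that every group used here shares both alleles and the sort marks cells of neural crest lineage rather than myelinating cells alone. Intact SCs (iSCs) came from the uncut nerve of the opposite side, distal SCs (dSCs) from the stump beyond the cut, and bridge SCs (bSCs) from the tissue that forms across the gap. In the pooled-nerve experiment each library held the nerves of 3 animals, with 4 libraries each of iSCs, of dSCs at day 6 and of bSCs at day 6. In the single-nerve time course each library came from 1 nerve, with 5 libraries of iSCs, 3 of dSCs at each time (day 1, day 2, and every other day from day 4 to day 10), and 3 of bSCs at each time from day 4.

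Lysosomes are acidic organelles in which cathepsins break down proteins, glycosidases trim sugars, and lipases and their cofactors dismantle membrane lipids. Autophagy delivers the cell's own material to them: a cup-shaped membrane, the phagophore, grows with the help of the ATG conjugation enzymes, which attach ATG8-family proteins to its lipids, and the closed autophagosome then fuses with a lysosome. SCs of a cut nerve take apart their own myelin partly by this route, macrophages that enter the nerve digest myelin in their own lysosomes, and macrophages in general are rich in lysosomal enzymes.

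Smart-seq2, which amplifies full-length cDNA from few cells by PCR, was used for all 47 mouse libraries. The libraries held from 9240883 to 22617054 counts on genes. Levels are given as CPM, a gene's counts scaled to a library size of 1e6 with edgeR's TMM factors. The quasi-likelihood test of edgeR, with Benjamini-Hochberg adjustment over all genes tested, is behind every value written "edgeR adjusted p", and a gene was called higher or lower where that value was under 0.05. Log2 fold changes are given with their SE. Because the samples are separate libraries of a group, p-values measure the spread between these libraries, and in bulk libraries a smaller number of cells of a type and less RNA per cell cannot be told apart.

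The labelled cell type was checked against markers. In the pooled nerves the summed CPM of 7 myelin markers lay between 26641 and 67296 in iSCs, between 671 and 3926 in dSCs and between 888 and 3626 in bSCs, and none of these markers was at 0 in a whole group. Genes of other cell types were also counted. The summed CPM of 16 macrophage markers (among them Ptprc, Csf1r, Lyz2 and C1qa) lay between 269 and 6960.5 in pooled iSCs, where replicate 5 was the highest, between 11246 and 18845 in dSCs and between 2891 and 9353 in bSCs. In the single nerves the same sum lay between 365 and 1656 in iSCs, between 4791 and 8040.0 in dSCs of days 1 and 2, between 3071 and 16292 in dSCs of days 4 to 10 and between 1400.2 and 16828 in bSCs. None of the 16 markers was at 0 in all libraries of a group. Lyz2 was the largest part of this unweighted sum in every pooled library, at 102 to 2949 CPM in iSCs. It was at 5981 to 9499 CPM in dSCs and at 1396 to 4006 CPM in bSCs. The summed CPM of 8 fibroblast markers overlapped between the pooled groups, with 10959 to 56001 in iSCs, 34019 to 49456 in dSCs and 19434 to 35241 in bSCs, although 2 of the 8, Dcn and Lum, were called lower in bSCs than in either other group.

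A set of 4 single-nerve libraries stood apart from the rest, namely intact replicates 0 and 1, distal day 1 replicate 1 and distal day 2 replicate 0. In these libraries 10042 to 11138 genes were detected, against 14045 to 15815 in the other 7 libraries of intact nerve, day 1 and day 2, although total counts overlapped. Their deviations from their group means went together across genes, with correlations of 0.311 to 0.449 in 5 pairs from different groups, and ran opposite to those of the other libraries, with correlations of -0.537 to -0.27 in 18 pairs. Single-nerve comparisons with iSCs are therefore also given without all 4, a fit that was chosen after seeing the data.

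The transcription factor Tfeb is known to drive lysosomal genes through the CLEAR element, an extended E-box. The E-box core and a longer form of it, not the full element, were therefore searched for in promoters. RefSeq promoter sequences (build GRCm38.p6, from 250 bases before to 50 after the gene's start) were at hand for 30 of the 39 members. Ctsb, Ctsh, Npc1, Galns, Asah1, Map1lc3a, Atg12, Atg16l1 and Becn1 had no entry. The E-box core CACGTG, which reads the same on both strands, was present in 10 of 30 members (33.3%), against 2187 of 27025 genes (8.09%). The longer TCACGTGA, which contains the core, was present in 4 of 30 members (13.3%) against 304 genes (1.12%). Both are descriptions of these windows, not binding sites. The core was found in 3 of 6 cathepsins, 3 of 4 conjugation genes, 2 of 5 glycan-degrading enzymes and 2 of 3 membrane proteins, with 4 copies in Lamp1, and in 0 of 4 ATG8-family genes. The 5 matches to the longer motif are shown because they lie in genes of 3 roles, of which Ctsd and Ctsa are among the members that rose below. Each line gives 30 bases, 5′ to 3′ on the gene's strand, with the motif in capitals.
Ctsa, chr2:164833749-164833778, plus strand: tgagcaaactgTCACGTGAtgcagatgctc
Ctsa, chr2:164833766-164833795, plus strand: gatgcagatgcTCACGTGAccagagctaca
Ctsd, chr7:142387908-142387937, minus strand: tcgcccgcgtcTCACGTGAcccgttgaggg
Mcoln1, chr8:3500462-3500491, plus strand: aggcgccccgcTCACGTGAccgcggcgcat
Atg3, chr16:45158746-45158775, plus strand: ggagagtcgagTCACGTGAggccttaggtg
The motif started 13 bases before the start of transcription in the first Ctsa window and 4 bases after it in the second, 99 before it in Ctsd, 46 before it in Mcoln1 and 72 before it in Atg3. Of the 14 members with a promoter entry that were called in some comparison, 5 (35.7%) held the core, close to the share of all 30.

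Levels between genes were compared per kilobase of exon, for the 37 members with a single locus in the annotation. In pooled iSCs, Psap, the precursor of the saposins that help enzymes reach their lipids, had the highest level, at 669.6 ± 30.3 CPM per kb (SD, n = 4). Lamp1, an abundant glycoprotein of the lysosomal membrane, followed at 612 ± 134, a spread that included the mean of Psap. Ctsb came next at 347 ± 165, then Ctsl at 319 ± 74.4, Map1lc3b at 302 ± 59.1 and Ctsd at 289 ± 58.6, and these neighbours did not differ beyond their spread. Atg16l1 was the lowest, at 3.49 ± 1.69 CPM per kb. In dSCs the order began with Ctsd at 2490 ± 523, Psap at 1982 ± 263 and Ctsb at 1863 ± 474 CPM per kb, and in bSCs with Ctsd at 1102 ± 374, Psap at 728 ± 211 and Ctsb at 717 ± 311. Ctsd thus stood sixth in iSCs and first in both regions of the cut nerve.

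In dSCs of day 6 against iSCs, 11 of the 39 members rose and 0 fell in the pooled nerves. Over all 13751 genes tested, 2.63% were called higher and 2.69% lower. The members' median log2 fold change was 0.47, with 27 above and 12 below 0, against -0.02 for all genes. The members that rose were mostly hydrolases: 10 of the 23 lysosomal members rose, with a median of 1.20, and 1 of 15 autophagy members, with a median of 0.03. For the 0 members called lower, 1 had an unadjusted p under 0.05 and DESeq2 called 1, Smpd1. A fit that took the nerve pool as a block, in which 0.887% of all genes were called higher, called 3 members, Ctsd, Gusb and Psap.

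In bSCs against iSCs, 3 members rose and 4 fell, where 7.24% and 7.46% of all genes were called higher and lower. The members' median was 0.10, against -0.16 for all genes. DESeq2 called 8 members higher and 5 lower. By edgeR Ctsd, Gusb and Atg5 rose, and Gabarapl1, Gabarapl2, Npc1 and Mcoln1 fell. In the blocked fit, where 3.57% of all genes were called higher and 3.47% lower, Ctsd and Gusb were called and the other 5 were not. In bSCs against dSCs, 0 members rose and 4 fell (Psap, Ctsl, Ctsa and Ctsd), where 2.31% and 3.11% of all genes were called, and 0 were higher at an unadjusted p under 0.05 or with DESeq2. Of the 39 members, 29 had a log2 fold change below 0 in this comparison, with a median of -0.50 against -0.07 for all genes. With the block, where 1.01% of all genes were called lower, Psap and Ctsl were called. These 3 comparisons share libraries.

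**Figure D1:**
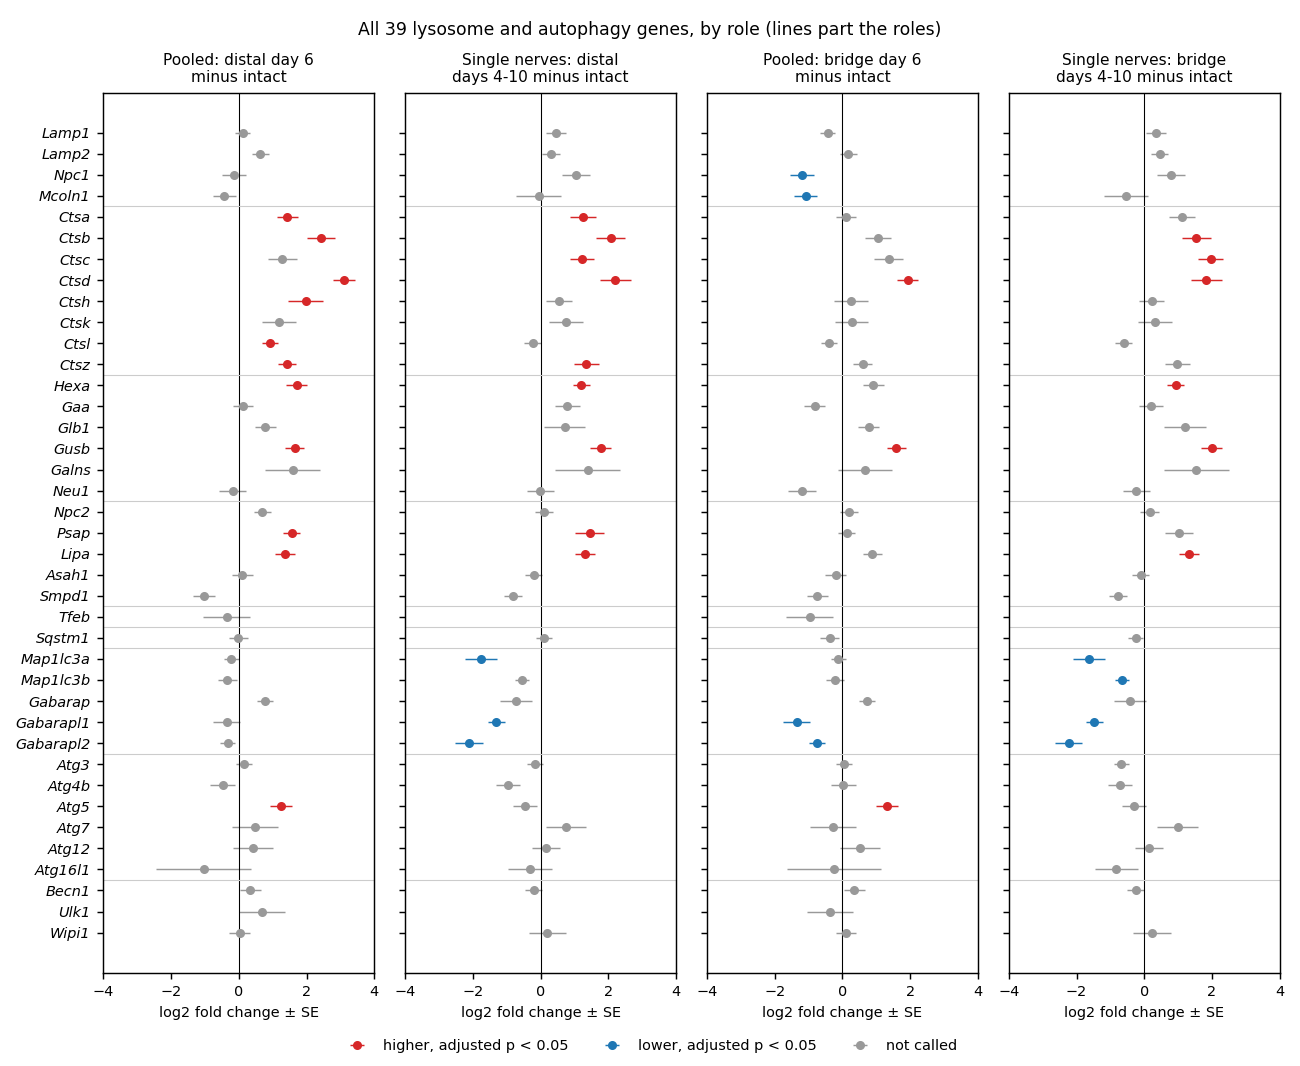
Log2 fold change with its SE (x axis) of the 39 lysosome and autophagy genes, 1 line per gene grouped by role, in dSCs and bSCs against iSCs, pooled at day 6 and single nerves of days 4 to 10. Colours mark called genes. The cathepsins lie to the right of 0 in the pooled dSCs against iSCs, with 6 of 8 called, and the ATG8 family lies to the left of 0 in the single nerves, where Gabarap turns to the right of 0 without the 4 libraries that stood apart.

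In the single nerves 37 members were tested, since Tfeb and Ulk1 did not reach the count minimum. In dSCs of days 1 and 2 against iSCs, 0 members were called, with 0.739% of all genes called higher and 0.586% lower, and the members' median was 0.02. At an unadjusted p under 0.05, 6 members were higher and 3 lower in edgeR's test, and DESeq2 called 1 (Ctsc, higher). In dSCs of days 4 to 10, 9 members rose and 3 fell, where 3.19% of all genes were called higher and 6.41% lower, with a median of 0.20 for the members and -0.07 for all genes. In bSCs of days 4 to 10, 6 rose and 4 fell, where 3.63% and 6.46% of all genes were called, with medians of 0.20 and -0.06. In both, every called rise was in a lysosomal member and every called fall in the ATG8 family. The lysosomal members' median was 0.79 in dSCs and in bSCs, and that of the autophagy members -0.38 and -0.53. The medians without the 4 libraries described above were 0.67 and 0.58 for lysosomal members and -0.25 and -0.26 for autophagy members, and 6 of 37 members changed sign in each region, none of them called.

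Without the 4 libraries that stood apart, 7746 genes were tested. In dSCs of days 4 to 10, 6 members were then called higher (Ctsb, Ctsc, Ctsd, Ctsz, Gusb and Hexa) and 1 lower (Gabarapl1), where 2.98% and 3.34% of all genes were called. In bSCs 4 members were called higher (Ctsc, Ctsd, Gusb and Hexa) and 1 lower (Gabarapl1), where 4.09% and 4.25% of all genes were called. In dSCs of days 1 and 2 the members' median was 0.17, and Ctsc was called higher, with a log2 fold change of 1.96 (edgeR adjusted p = 0.0368), where 0.775% of all genes were called higher and 0.168% lower. Of the 11 members that rose in the pooled dSCs, 8 (72.7%) also rose in the single-nerve dSCs of days 4 to 10, which is 88.9% of the 9 there. Over the 7171 genes tested in both experiments, 81 were called higher in both, which is 27.9% of the 290 called higher in the pools and 35.4% of the 229 in the single nerves.

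Cathepsins are the lysosome's peptidases, and 6 of the 8 rose in the pooled dSCs, with a median log2 fold change of 1.43 and all 8 above 0. Their summed level was 3111 to 6679 CPM in iSCs, 15310.0 to 23584 CPM in dSCs and 5516 to 11627 CPM in bSCs. The summed macrophage markers had the same order of group medians, with 2 of the 16 called higher in dSCs against iSCs (C1qa and C1qc), 11 higher at an unadjusted p under 0.05 and 7 called higher by DESeq2. More were called higher in the single nerves, and none lower. In dSCs of days 4 to 10 these were Ptprc, Csf1r, Cd14, Emr1, Fcgr3, Lyz2, Laptm5, C1qa, C1qb and C1qc, from 2.15 ± 0.52 (Cd14) to 4.27 ± 0.62 (Lyz2). In bSCs Lyz2 rose by 3.52 ± 0.59. On days 1 and 2 Lyz2 (3.41 ± 0.61), Fcgr3, Emr1 and C1qb were called. The part of these markers in the result was not tested.

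Ctsd, on chromosome 7 (149557053 to 149573943, minus strand), encodes the aspartic protease cathepsin D. Its level in the 4 pooled iSC libraries was 579, 633, 814 and 891 CPM. In dSCs it was 4764, 5696, 7778 and 6849.6 CPM, and in bSCs 3681, 3314, 2564 and 1548 CPM. The 3 groups did not overlap, with dSCs highest and bSCs between. The log2 fold change was 3.10 ± 0.32 in dSCs against iSCs (edgeR adjusted p = 0.000438) and 1.93 ± 0.31 in bSCs against iSCs (edgeR adjusted p = 0.00128). Both calls remained with the nerve pool as a block, at 3.11 (edgeR adjusted p = 0.0102) and 1.95 (edgeR adjusted p = 0.0267). The difference of bSCs from dSCs, -1.18 ± 0.30 (edgeR adjusted p = 0.0392), was not called with the block, at -1.17 (edgeR adjusted p = 0.129).

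Among the single nerves, Ctsd was at 791, 348, 1109, 734 and 629 CPM in iSCs. In dSCs of days 4 to 10 it ranged from 1418 to 7703 CPM with a median of 3605, and in bSCs from 1031 to 12829 CPM with a median of 1909. All 12 dSC libraries lay above every iSC library, while the lowest bSC library lay within the iSC range. The log2 fold change was 2.20 ± 0.46 in dSCs (edgeR adjusted p = 0.00278) and 1.83 ± 0.45 in bSCs (edgeR adjusted p = 0.00875), and without the 4 libraries 2.01 (edgeR adjusted p = 0.0150) and 1.63 (edgeR adjusted p = 0.0354).

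Ctsb encodes cathepsin B, a cysteine protease. In the pooled libraries it stood at 1038, 1101, 1724 and 2724 CPM in iSCs, at 6341, 11348, 9945 and 7674 CPM in dSCs and at 4398, 4902, 2356 and 1932 CPM in bSCs. The dSC libraries were all above the other 2 groups, whereas bSCs and iSCs overlapped. It rose in dSCs by 2.42 ± 0.41 on the log2 scale (edgeR adjusted p = 0.00432), a call lost with the block (2.49, edgeR adjusted p = 0.0621). In bSCs the value was 1.04 ± 0.39 against iSCs (edgeR adjusted p = 0.0924) and -1.38 ± 0.40 against dSCs (edgeR adjusted p = 0.0601), neither of them called. Ctsb in the single nerves was at 1569.9, 807, 2377, 1564 and 1605 CPM in iSCs, at 3251 to 11257 CPM (median 6793) in dSCs of days 4 to 10 and at 1318 to 14964 CPM (median 3989.9) in bSCs. The dSC libraries did not overlap with iSCs and some bSC libraries did. The log2 fold changes were 2.07 ± 0.43 (edgeR adjusted p = 0.00259) and 1.54 ± 0.42 (edgeR adjusted p = 0.0156). The first remained without the 4 libraries, at 1.85 (edgeR adjusted p = 0.0149), and the second was not called, at 1.32 (edgeR adjusted p = 0.0643).

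Ctsz, the carboxypeptidase cathepsin Z, was at 269, 279, 339 and 566 CPM in pooled iSCs, at 890.4, 1206, 1013 and 803 CPM in dSCs and at 564, 631, 569.9 and 426 CPM in bSCs. Each dSC library was above all libraries of the other groups, and bSCs overlapped with iSCs. Ctsz rose by 1.43 ± 0.27 in dSCs on the log2 scale (edgeR adjusted p = 0.00926), a call lost with the block (1.40, edgeR adjusted p = 0.0921), and stood at 0.59 ± 0.27 in bSCs (edgeR adjusted p = 0.162). Its single-nerve levels were 40.9 to 558 CPM in the 5 iSC libraries (median 400.2), 585 to 1314 CPM (median 809) in dSCs of days 4 to 10 and 346 to 1188 CPM (median 621) in bSCs. It rose in dSCs by 1.35 ± 0.38 (edgeR adjusted p = 0.0218), and by 0.87 without the 4 libraries (edgeR adjusted p = 0.0355).

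Ctsl, the cysteine protease cathepsin L, was at 476, 552, 681 and 810.4 CPM in pooled iSCs, at 1097, 1257, 1176 and 1277 CPM in dSCs and at 645, 473, 368 and 428 CPM in bSCs. It was higher in every dSC library than in any other, and bSCs were within or below the range of iSCs. Ctsl rose in dSCs by 0.93 ± 0.24 (edgeR adjusted p = 0.0390), a call lost with the block (1.05, edgeR adjusted p = 0.131), and was lower in bSCs than in dSCs, at -1.33 ± 0.24 (edgeR adjusted p = 0.00961), a call kept with it at -1.34 (edgeR adjusted p = 0.0479). In single nerves Ctsl was not called. It was at 564 to 1671 CPM in iSCs, at 398 to 1304 CPM in dSCs of days 4 to 10 and at 255 to 983 CPM in bSCs, and its log2 fold change in dSCs was -0.23 ± 0.25 (edgeR adjusted p = 0.616). The highest iSC library was among the 4 that stood apart, and without them the value was 0.27 (edgeR adjusted p = 0.662).

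Ctsc encodes cathepsin C, which trims dipeptides and activates serine proteases of immune cells. It was at 194, 247, 280.0 and 530.2 CPM in pooled iSCs, at 319.6, 1322, 894 and 509.7 CPM in dSCs and at 593, 1139, 807 and 673 CPM in bSCs. The bSC libraries were all above iSCs, whereas dSCs overlapped with both. The log2 fold changes, 1.28 ± 0.43 in dSCs (edgeR adjusted p = 0.119) and 1.36 ± 0.43 in bSCs (edgeR adjusted p = 0.0503), were not called. Ctsc in the single nerves was at 482, 308, 112, 233 and 235 CPM in iSCs, at 367 to 1273 CPM (median 536) in dSCs of days 4 to 10 and at 393 to 1938 CPM (median 1005) in bSCs. It rose by 1.22 ± 0.34 in dSCs (edgeR adjusted p = 0.0229) and by 1.96 ± 0.36 in bSCs (edgeR adjusted p = 0.000667). Without the 4 libraries the values were 1.74 (edgeR adjusted p = 0.0122) and 2.46 (edgeR adjusted p = 0.00076).

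Of the remaining cathepsins, Ctsa, a carboxypeptidase that also shields other lysosomal enzymes, was at 433 to 676 CPM in pooled iSCs, at 1191 to 1814 CPM in dSCs and at 310.4 to 798 CPM in bSCs. It rose in dSCs by 1.43 ± 0.30 (edgeR adjusted p = 0.0172) and was lower in bSCs than in dSCs, at -1.34 ± 0.30 (edgeR adjusted p = 0.0243). Neither call was made with the block, at 1.44 (edgeR adjusted p = 0.108) and -1.36 (edgeR adjusted p = 0.0827). In the single-nerve dSCs Ctsa rose by 1.25 ± 0.39 (edgeR adjusted p = 0.0366), and without the 4 libraries it was not called, at 0.91 (edgeR adjusted p = 0.0638). Ctsh, an aminopeptidase, rose in pooled dSCs by 1.97 ± 0.53 (edgeR adjusted p = 0.0463), from 29.2 to 249 CPM in iSCs to 374 to 576 CPM, a call lost with the block (2.38, edgeR adjusted p = 0.141), and it was not called in the single nerves. Ctsk, known for collagen breakdown by osteoclasts, was at 48.4 to 233 CPM in iSCs and 282 to 364 CPM in dSCs and was called nowhere.

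**Figure D2:**
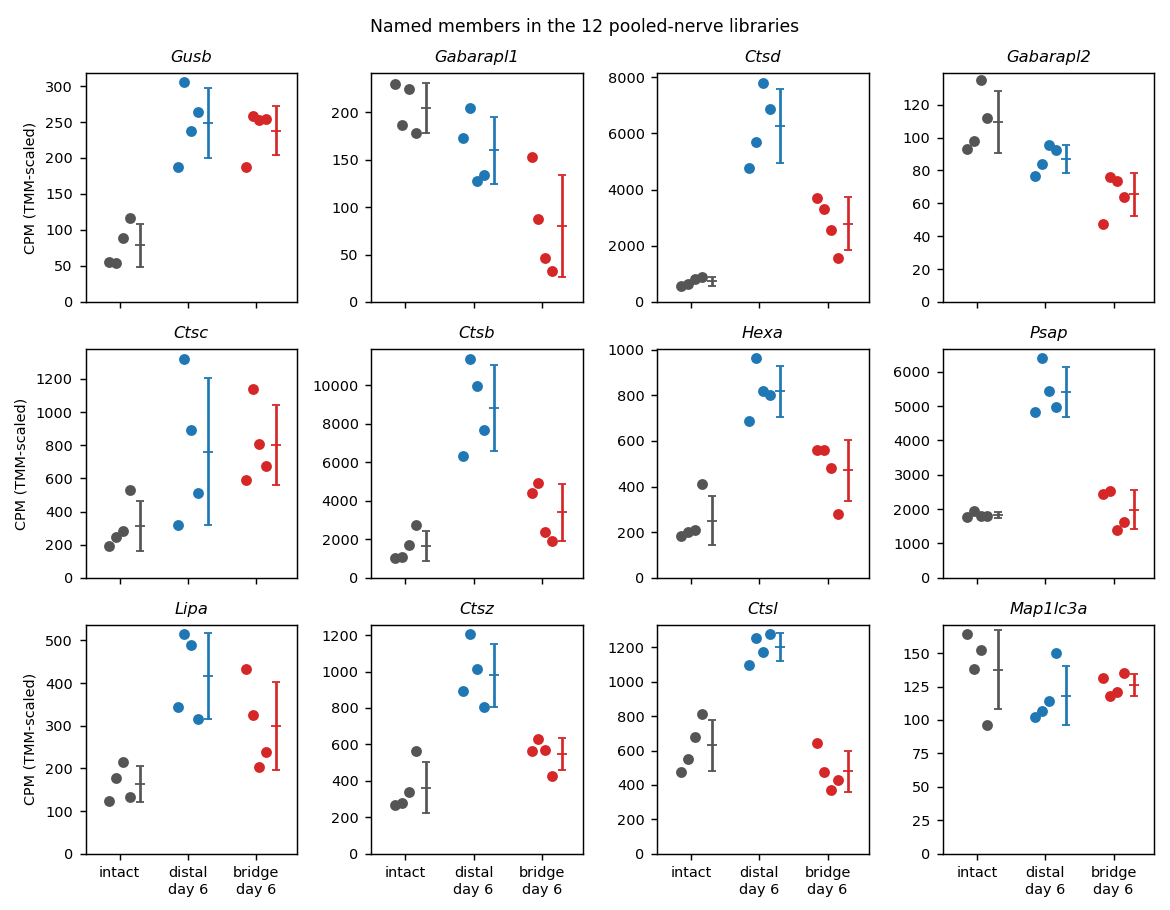
Level in CPM (y axis, from 0) of the 12 members named in full in each of the 12 pooled-nerve libraries, with a point per library and the group mean and SD. For Ctsd the dSC libraries sit between 4764 and 7778 CPM, above bSCs at 1548 to 3681 CPM and iSCs at 579 to 891 CPM.

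Glycan-degrading enzymes take sugars off glycolipids, glycoproteins and glycosaminoglycans. Of the 6 members 2 rose in pooled dSCs, with a median log2 fold change of 1.19, and 1 rose in bSCs, with a median of 0.72. Gusb, on chromosome 5 (130464881 to 130478919, minus strand), encodes beta-glucuronidase. In pooled iSCs it was at 55.6, 54.3, 89.3 and 116 CPM, in dSCs at 187, 305, 238 and 264 CPM and in bSCs at 187, 258, 253 and 255 CPM. Every library of the cut nerve lay above every iSC library, and dSCs and bSCs overlapped. Gusb rose by 1.66 ± 0.28 in dSCs (edgeR adjusted p = 0.00434) and by 1.59 ± 0.28 in bSCs (edgeR adjusted p = 0.00229), and with the block by 1.76 (edgeR adjusted p = 0.0221) and 1.70 (edgeR adjusted p = 0.0128). The difference of bSCs from dSCs was -0.06 ± 0.27 (edgeR adjusted p = 0.933).

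Gusb in the single nerves was at 62.5, 41.9, 67.3, 81.1 and 98.5 CPM in iSCs. It ranged from 165 to 383 CPM (median 227) in dSCs of days 4 to 10 and from 154 to 567 CPM (median 285) in bSCs. All 24 of these libraries lay above iSCs. The log2 fold changes were 1.77 ± 0.30 in dSCs (edgeR adjusted p = 0.000439) and 1.99 ± 0.31 in bSCs (edgeR adjusted p = 8.6e-05), and without the 4 libraries 1.55 (edgeR adjusted p = 0.00162) and 1.76 (edgeR adjusted p = 0.000374). Gusb and Ctsd were the only members called in both regions and in both experiments with every one of these fits.

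Hexa encodes the alpha subunit of beta-hexosaminidase, which degrades gangliosides. It was at 182, 199, 211 and 412 CPM in pooled iSCs, at 687, 962, 821 and 801 CPM in dSCs and at 559, 562, 481 and 279 CPM in bSCs. All dSC libraries were above both other groups, and 1 bSC library lay below the highest iSC library. Hexa rose in dSCs by 1.71 ± 0.31 (edgeR adjusted p = 0.00707), a call lost with the block (1.64, edgeR adjusted p = 0.0849), and stood at 0.91 ± 0.30 in bSCs (edgeR adjusted p = 0.0619). Single-nerve iSCs held it at 444, 260.0, 254, 253 and 287 CPM, with 442 to 1422 CPM (median 665) in dSCs of days 4 to 10 and 253 to 1254 CPM (median 541) in bSCs. It rose by 1.20 ± 0.25 in dSCs (edgeR adjusted p = 0.00271) and by 0.92 ± 0.25 in bSCs (edgeR adjusted p = 0.0145). Without the 4 libraries, of which 1 was the highest iSC library, the values were 1.39 (edgeR adjusted p = 0.0048) and 1.10 (edgeR adjusted p = 0.0152).

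The other 4 glycan-degrading enzymes were called in no comparison. Glb1, a beta-galactosidase, Galns, a sulfatase of keratan sulfate, Neu1, a sialidase, and Gaa, which releases glucose from glycogen, had pooled log2 fold changes from -0.18 (Neu1) to 1.59 (Galns) in dSCs against iSCs. Galns was low, at 3.79 to 18.6 CPM in iSCs and 18.7 to 54.2 CPM in dSCs.

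Of the 5 lipid-handling members, 2 rose in pooled dSCs, with a median of 0.70 over the 5, and 0 rose in bSCs, where 1 was higher at an unadjusted p under 0.05 in edgeR's test and DESeq2 called 1 higher. Psap was at 1759, 1948, 1798 and 1805 CPM in iSCs, at 4823, 6408, 5438 and 4963 CPM in dSCs and at 2440.2, 2514, 1378 and 1611 CPM in bSCs. The dSC libraries stood well above both other groups, and bSCs fell on either side of the narrow range of iSCs. Psap rose in dSCs by 1.57 ± 0.25 (edgeR adjusted p = 0.00322) and was lower in bSCs than in dSCs, at -1.45 ± 0.25 (edgeR adjusted p = 0.00835). Both calls were kept with the block, at 1.63 (edgeR adjusted p = 0.0305) and -1.48 (edgeR adjusted p = 0.0386). Psap in the single nerves was at 688, 664, 2125, 1949 and 2080.0 CPM in iSCs, where the 2 low libraries are those that stood apart. In dSCs of days 4 to 10 it was at 2184 to 6072 CPM (median 4251), and it rose by 1.45 ± 0.43 (edgeR adjusted p = 0.0306). Leaving out the 4 libraries, it was not called, at 1.01 (edgeR adjusted p = 0.134).

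Lipa, the acid lipase that frees cholesterol and fatty acids from lipoproteins and lipid droplets, was at 123, 178, 215 and 134 CPM in pooled iSCs, at 344, 515, 489 and 317 CPM in dSCs and at 432, 324, 203 and 238 CPM in bSCs. The dSC libraries lay above iSCs, and bSCs overlapped with both. Lipa rose in dSCs by 1.36 ± 0.29 (edgeR adjusted p = 0.0183), a call lost with the block (1.55, edgeR adjusted p = 0.0519), and stood at 0.88 ± 0.29 in bSCs (edgeR adjusted p = 0.0575). Its single-nerve levels were 49.5 to 173 CPM in iSCs (median 160.0), 198 to 465 CPM (median 307) in dSCs of days 4 to 10 and 126 to 611 CPM (median 288) in bSCs. It rose by 1.31 ± 0.30 (edgeR adjusted p = 0.0061) and 1.32 ± 0.30 (edgeR adjusted p = 0.00526). Without the 4 libraries the values were 0.92 (edgeR adjusted p = 0.0802) and 0.93 (edgeR adjusted p = 0.0643), not called. Npc2, which passes cholesterol to Npc1, Asah1, acid ceramidase, and Smpd1, acid sphingomyelinase, were called nowhere. Smpd1 had log2 fold changes below 0 in pooled dSCs (-1.03) and bSCs (-0.74), opposite in sign to Psap and Lipa.

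Of the 4 membrane proteins, 0 were called in pooled dSCs (1 higher at an unadjusted p under 0.05 in edgeR's test, 0 by DESeq2), with a median of -0.01, and 2 fell in bSCs, with a median of -0.75. Npc1, the cholesterol exporter of the lysosomal membrane, was at 80.4 to 142 CPM in iSCs and 71.6 to 143 CPM in dSCs and at 27.3 to 78.0 CPM in bSCs, where it fell by 1.19 ± 0.35 (edgeR adjusted p = 0.0380). Mcoln1, a calcium channel of the lysosome, was at 67.0 to 77.3 CPM in iSCs, at 34.1 to 92.4 CPM in dSCs and at 28.5 to 46.7 CPM in bSCs, where it fell by 1.08 ± 0.34 (edgeR adjusted p = 0.0483). In both genes every bSC library was below every iSC library, and neither call was made with the block, at -1.25 (edgeR adjusted p = 0.0756) for Npc1 and -1.22 (edgeR adjusted p = 0.0906) for Mcoln1. Neither gene was called against iSCs in the single nerves. There Npc1 had the opposite sign, at 1.04 ± 0.41 in dSCs (edgeR adjusted p = 0.112) and 0.79 ± 0.41 in bSCs (edgeR adjusted p = 0.236), and without the 4 libraries 0.98 (edgeR adjusted p = 0.288) and 0.73 (edgeR adjusted p = 0.406). Lamp1 was at 969.9 to 1667 CPM in iSCs, 1321 to 1796 CPM in dSCs and 950.2 to 1145 CPM in bSCs, and its log2 fold change in dSCs was 0.12 (edgeR adjusted p = 0.896). That of Lamp2, its relative, was 0.63 (edgeR adjusted p = 0.209). The rise of the cathepsins was thus not accompanied by a called rise in either of these abundant membrane proteins.

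Tfeb itself was low. It was at 11.9 to 23.5 CPM in pooled iSCs, 9.75 to 13.9 CPM in dSCs and 3.40 to 17.9 CPM in bSCs, with a log2 fold change of -0.36 in dSCs (edgeR adjusted p = 0.901) and -0.97 in bSCs (edgeR adjusted p = 0.419).

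ATG8-family proteins are attached to the phagophore and bind receptors of cargo. None of the 5 was called in pooled dSCs by edgeR, with a median log2 fold change of -0.33, while 1 was higher at an unadjusted p under 0.05 and DESeq2 called 1, Gabarap, and 2 fell in pooled bSCs. In the single nerves 3 of 5 fell in dSCs of days 4 to 10, with a median of -1.31, and 4 of 5 in bSCs, with a median of -1.47. Leaving out those 4 libraries, 1 of 5 was called in each region, and the medians were -0.50 and -0.60. Gabarapl1 was at 230.0, 187, 225 and 178 CPM in pooled iSCs, at 173, 205, 128 and 134 CPM in dSCs and at 153, 88.0, 46.2 and 33.1 CPM in bSCs. Every bSC library was below every iSC library, and dSCs overlapped with both. It fell in bSCs, at -1.36 ± 0.40 (edgeR adjusted p = 0.0354), a call lost with the block (-1.36, edgeR adjusted p = 0.0618), and stood at -0.36 ± 0.39 in dSCs (edgeR adjusted p = 0.787). Gabarapl1 in the single nerves was at 581, 184, 241, 154 and 241 CPM in iSCs, at 75.2 to 150.2 CPM (median 122) in dSCs of days 4 to 10 and at 67.7 to 162 CPM (median 99.8) in bSCs. It fell by 1.31 ± 0.26 in dSCs (edgeR adjusted p = 0.00171), and the value in bSCs was -1.47 ± 0.26 (edgeR adjusted p = 0.000374). It still fell without the 4 libraries, at -0.90 (edgeR adjusted p = 0.0149) and -1.08 (edgeR adjusted p = 0.0026).

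Gabarapl2, on chromosome 8 (114464603 to 114477512, plus strand), was at 93.0, 98.0, 135 and 112 CPM in pooled iSCs, at 76.3, 83.8, 95.3 and 92.3 CPM in dSCs and at 47.4, 76.1, 73.8 and 64.1 CPM in bSCs. The bSC libraries were below all others. Gabarapl2 fell in bSCs, at -0.74 ± 0.23 (edgeR adjusted p = 0.0473), a call lost with the block (-0.70, edgeR adjusted p = 0.148). Single-nerve levels were 425, 574, 47.6, 118 and 135 CPM in iSCs, 31.5 to 109 CPM (median 55.3) in dSCs of days 4 to 10 and 12.2 to 89.4 CPM (median 61.4) in bSCs. The 2 high iSC libraries are those that stood apart, and of the other 3, the lowest lay inside the range of the cut nerve and the others just above it. It fell by 2.12 ± 0.41 in dSCs (edgeR adjusted p = 0.00138), and the value in bSCs was -2.23 ± 0.41 (edgeR adjusted p = 0.000614). Without the 4 libraries the values were -0.73 (edgeR adjusted p = 0.296) and -0.86 (edgeR adjusted p = 0.145), not called, so that the single-nerve result for this gene rests on those libraries.

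Map1lc3a, which encodes LC3A, was at 164, 138, 152 and 96.1 CPM in pooled iSCs, at 102, 106, 114 and 150.2 CPM in dSCs and at 131, 118, 121 and 135 CPM in bSCs, and the groups overlapped. Single-nerve levels were 409.5, 688, 37.7, 143 and 140.4 CPM in iSCs, again with the 2 libraries that stood apart highest, 28.0 to 128 CPM in dSCs of days 4 to 10 and 30.1 to 154 CPM in bSCs. The falls of -1.75 ± 0.47 (edgeR adjusted p = 0.0166) and -1.62 ± 0.47 (edgeR adjusted p = 0.0246) became -0.32 (edgeR adjusted p = 0.786) and -0.21 (edgeR adjusted p = 0.839) without the 4 libraries. Map1lc3b, the commonly followed LC3B, was at 629 to 916 CPM in single-nerve iSCs and 333 to 699 CPM in bSCs, where it fell by 0.65 ± 0.21 (edgeR adjusted p = 0.0455), a call not made without the 4 libraries (-0.60, edgeR adjusted p = 0.0595). Gabarap was called nowhere, and its pooled values in dSCs and bSCs, 0.77 (edgeR adjusted p = 0.082) and 0.71 (edgeR adjusted p = 0.056), had the opposite sign to those of Gabarapl1 and Gabarapl2. In single nerves its values were -0.73 in dSCs (edgeR adjusted p = 0.364) and -0.42 in bSCs (edgeR adjusted p = 0.651), and without the 4 libraries 0.70 (edgeR adjusted p = 0.445) and 0.99 (edgeR adjusted p = 0.177).

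Of the 6 conjugation genes, Atg5, which forms part of the enzyme that lipidates ATG8 proteins, was the only one called. It was at 29.1, 37.1, 29.7 and 23.8 CPM in pooled iSCs, at 93.6, 37.7, 69.9 and 83.5 CPM in dSCs and at 55.1, 80.2, 100.4 and 63.5 CPM in bSCs. It rose by 1.25 ± 0.33 in dSCs (edgeR adjusted p = 0.0442) and by 1.32 ± 0.33 in bSCs (edgeR adjusted p = 0.0171), and neither call was made with the block, at 1.17 (edgeR adjusted p = 0.263) and 1.23 (edgeR adjusted p = 0.139). No iSC library reached the lowest library of the cut nerve, though the margin to dSCs was narrow. Atg5 had, in the single nerves, the opposite sign, -0.45 ± 0.36 in dSCs of days 4 to 10 (edgeR adjusted p = 0.478) and -0.31 ± 0.36 in bSCs (edgeR adjusted p = 0.657), and was not called. The sign was that of the pools without the 4 libraries, at 0.48 (edgeR adjusted p = 0.505) and 0.62 (edgeR adjusted p = 0.281), so the opposite sign rests on them. Atg3, Atg4b, Atg7, Atg12 and Atg16l1 had pooled log2 fold changes from -1.04 (Atg16l1) to 0.47 (Atg7) in dSCs. Atg16l1 was at 0 in 2 of the dSC libraries and at most 54.1 CPM in any pooled library.

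The initiation genes Becn1, Ulk1 and Wipi1 and the receptor Sqstm1, which carries ubiquitinated cargo, were called in no comparison. Their pooled log2 fold changes in dSCs were 0.34, 0.69, 0.03 and -0.01. Sqstm1 was at 391 to 594 CPM in iSCs, 341 to 743 CPM in dSCs and 278 to 450.5 CPM in bSCs.

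Bridge and distal SCs were compared directly in both experiments. In the pooled nerves the cathepsins had a median log2 fold change of -1.25 in bSCs against dSCs, with 3 of 8 called lower, and the 6 glycan-degrading enzymes one of -0.86. Of the latter 0 were called by edgeR, 3 were lower at an unadjusted p under 0.05 and DESeq2 called 1. In the single nerves of days 4 to 10, 0 of 37 members were called, where 0% of all genes were called higher and 0.112% lower, with a median of -0.11 for the members and 0.05 for all genes. At an unadjusted p under 0.05, 1 member was higher and 2 lower in edgeR's test, and DESeq2 called 0. The 4 members called in the pools had values below 0 here too, at -0.42 ± 0.31 for Psap, -0.38 ± 0.19 for Ctsl, -0.37 ± 0.31 for Ctsd and -0.14 ± 0.28 for Ctsa, and the difference between the experiments was not tested. The 2 experiments also differed in the macrophage markers, whose sums did not overlap between the pooled dSCs and bSCs and overlapped widely in the single nerves. Fibroblast markers also moved in this comparison. Dcn was called lower in bSCs than in dSCs in the pools, at -2.87 ± 0.51 (edgeR adjusted p = 0.00917), and in the single nerves, at -1.18 ± 0.22 (edgeR adjusted p = 0.0183), and Lum in the pools, at -3.25 ± 0.58 (edgeR adjusted p = 0.00925), with a median of -1.56 over the 8 in the pools. Of the 8, 4 were lower and 0 higher there at an unadjusted p under 0.05. Against iSCs in single-nerve bSCs Dcn was also called lower, while Col1a1 and Col1a2 were called higher, at 2.15 ± 0.66 (edgeR adjusted p = 0.0356) and 1.48 ± 0.36 (edgeR adjusted p = 0.00794). In the pools Kdr, an endothelial marker, was called higher in bSCs than in dSCs, and Myh11, a mural cell marker, lower. At an unadjusted p under 0.05 in edgeR's test, 3 of the 8 endothelial markers were higher there and 0 lower. Of the 6 mural cell markers 2 were higher and 1 lower, and DESeq2 also called 2 higher and 1 lower, so that Myh11 does not stand for its list. The part of these marker lists in the result was not tested. When bSC and dSC libraries were paired by animal in 10 pairs, a fit of 7779 genes in which 0.604% were called higher and 5.94% lower, 2 members were called. Ctsc was higher in bSCs by 0.85 (edgeR adjusted p = 0.0356) and Mcoln1 was lower, at -1.67 (edgeR adjusted p = 0.0234). Without the pairing the differences were 0.73 ± 0.25 for Ctsc (edgeR adjusted p = 0.342) and -0.48 ± 0.51 for Mcoln1 (edgeR adjusted p = 0.950). Ctsc was higher in the bSC library in 7 of the 10 pairs. Mcoln1 was lower in bSCs in 5 of the 10 and higher in the other 5, with the widest gap in the pair of day 10, at 1.60 CPM in bSCs and 61.4 CPM in dSCs.

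**Figure D3:**
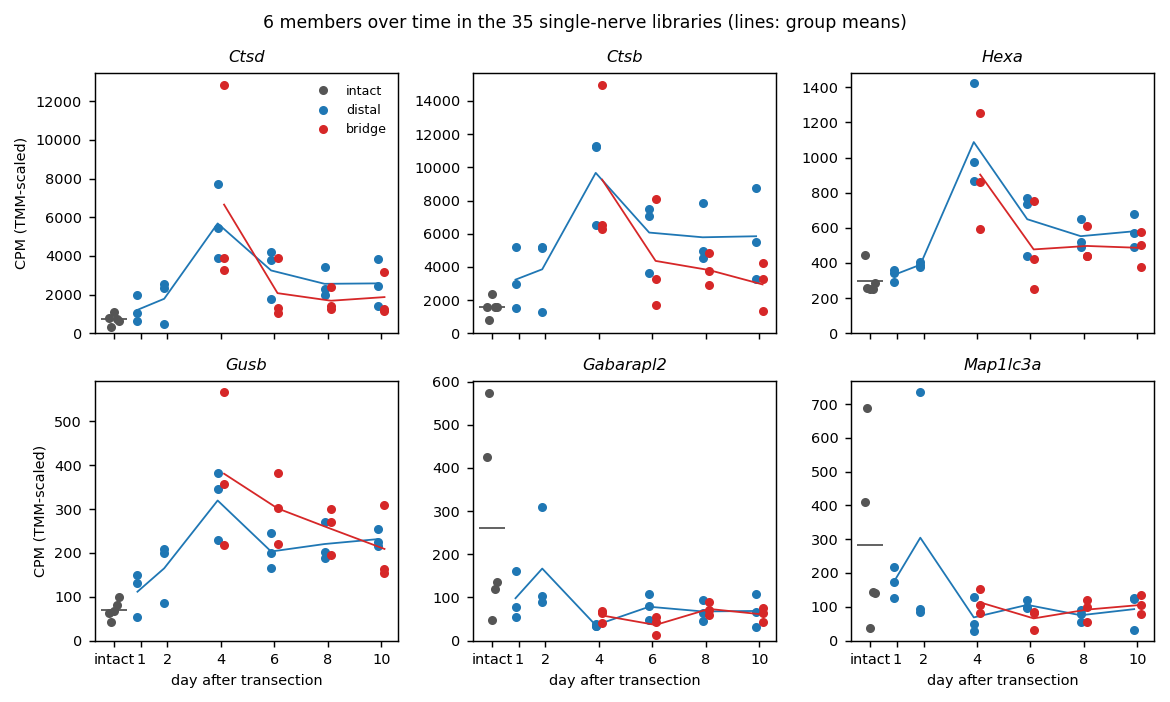
Level in CPM (y axis, from 0) of 6 members in the 35 single-nerve libraries by day after transection (x axis), with a point per library, lines through the group means of dSCs and bSCs, and iSCs at the left end. The dSC libraries of day 4 hold Ctsd at 3899.8 to 7703 CPM, above iSCs at 348 to 1109 CPM.

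Over the days, Ctsd in dSCs was at 1053, 622 and 1956 CPM on day 1 and at 472, 2549.6 and 2330.4 CPM on day 2, with the low value of each day in a library that stood apart. It was at 7703, 3899.8 and 5443 CPM on day 4, at 4182, 3781 and 1786 CPM on day 6, at 2268, 1977 and 3429.7 CPM on day 8 and at 1418, 2459 and 3867 CPM on day 10. The 2 highest libraries were from day 4, and neighbouring days from day 4 on overlapped. Hexa had its highest dSC libraries on the same day, with 976, 868 and 1422 CPM on day 4 against 289.6 to 358 CPM on day 1 and 491 to 681 CPM on day 10. Equality of the 6 days in dSCs was tested with an F test. It was rejected for 0 of 37 members and for 0.237% of all genes, with 4 members under an unadjusted p of 0.05 and 1 called by DESeq2. The lowest p among the members was that of Hexa (edgeR adjusted p = 0.134, unadjusted 0.000735), the one DESeq2 called, followed by Ctsd (edgeR adjusted p = 0.47, unadjusted 0.0264).

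In bSCs the first day sampled was day 4, when Ctsd was at 12829, 3889.8 and 3251 CPM. By day 10 it was at 1169, 1260.0 and 3187 CPM. Each day 4 library was above each day 10 library, the closest being 3251 against 3187 CPM. A dependence of the bridge and distal difference on the day was called for 0 of 37 members, as it was for 0% of all genes, with 0 members under an unadjusted p of 0.05 in edgeR's test and 0 called by DESeq2. The median of the summed macrophage markers was likewise highest on day 4 in both regions, at 14479 CPM in dSCs and 14269 CPM in bSCs. Their range in dSCs was 14274 to 16118 CPM on day 4, 3071 to 16292 CPM on day 6 and 4345 to 8493 CPM on day 10, and in bSCs it was 8916 to 16828 CPM on day 4 and 2096 to 10607 CPM on day 10.

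The members were set against the macrophage markers across the 12 libraries of days 4 to 10 in each region, on the scale of log2(CPM + 1), for the 12 members named in full, which gave 24 relations. Values of p are from a permutation test (two-sided) of the values with the day left in, and were adjusted over the 24. Libraries of the same day share its level, so these p-values may be too small. In dSCs Pearson's r was 0.923 for Ctsl, 0.906 for Ctsz, 0.874 for Ctsd, 0.844 for Psap, 0.835 for Hexa and 0.811 for Ctsb, with permutation adjusted p from 0.0003 to 0.00381. Spearman's rho for the same genes lay between 0.741 and 0.944, with permutation adjusted p of at most 0.0133. Without the 2 libraries farthest from the median of the markers, r for these genes was 0.734 to 0.881. For Gusb r was 0.615 (rho 0.545, permutation adjusted p = 0.0533 and 0.101), and it was 0.403 without those 2 libraries. For Gabarapl2 it was -0.204 and for Map1lc3a 0.0281. In bSCs r was 0.910 for Hexa, 0.899 for Ctsb, 0.835 for Ctsz and 0.800 for Ctsd, with permutation adjusted p from 0.0003 to 0.0043 and rho from 0.769 to 0.958. Without the 2 farthest libraries r for these 4 was 0.671 to 0.904. Psap and Lipa had r of 0.669 and 0.671 (permutation adjusted p = 0.0299 each), and r was 0.388 for Gusb, 0.139 for Ctsc and 0.0894 for Gabarapl2. It was -0.113 for Map1lc3a and -0.599 for Gabarapl1 (rho -0.559, permutation adjusted p = 0.0571 and 0.0949). Ctsl had r = 0.771 in bSCs (rho 0.657, permutation adjusted p = 0.00672 and 0.0417), and r was 0.479 without the 2 farthest libraries. For Lipa in dSCs r was 0.668 (rho 0.601, permutation adjusted p = 0.0299 and 0.0684), and 0.346 without them. Leaving out the farthest libraries also narrows the range of the markers, so these drops cannot show whether a relation rests on them.

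The libraries of a region came from 4 days, so that a shared day could move both measures. The median of the marker sum was highest on day 4 in both regions, though its dependence on the day was not tested. EdgeR called a dependence on the day in dSCs for no member. With each day's mean subtracted, r was 0.797 in dSCs and 0.720 in bSCs for Ctsd, 0.922 and 0.715 for Ctsl, 0.761 and 0.866 for Hexa, and 0.484 and 0.279 for Gusb. Libraries with a higher summed level of macrophage markers thus held more of most named cathepsins, Hexa and Psap. In these libraries the relations of Gusb and of the 3 named ATG8 genes did not pass the test. Lyz2 was the largest part of that sum in every pooled library, and the relations were not tested without Lyz2. The part of the markers in the comparisons with iSCs was not tested.

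**Figure D4:**
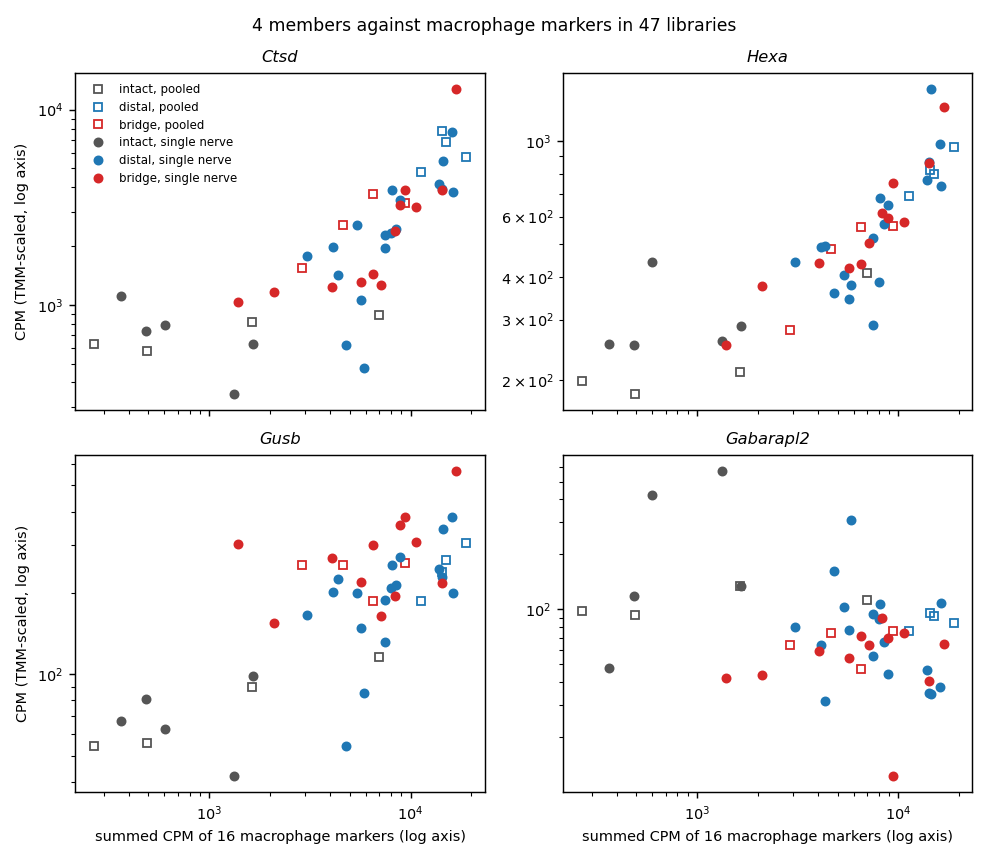
Level in CPM of 4 members (y axis, log scale) against the summed CPM of 16 macrophage markers (x axis, log scale), with 1 point for each of the 47 libraries, coloured by region, filled for single nerves and open for pools. Among the 12 dSC libraries of days 4 to 10, r was 0.874 for Ctsd and 0.615 for Gusb.

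Other genes of the same pathways were read from 7 lists of 120 genes. Among 27 further lysosomal hydrolases, 5 rose and 1 fell in pooled dSCs, with a median of 0.62. Lgmn, the asparagine endopeptidase legumain, rose by 2.29 ± 0.48 (edgeR adjusted p = 0.0159). Ctsf, another cathepsin, fell by 1.28 ± 0.29 (edgeR adjusted p = 0.0216), with a value of -2.15 ± 0.29 in bSCs (edgeR adjusted p = 0.00054). Among single nerves Ctss, cathepsin S, which macrophages use in antigen presentation, was the hydrolase that rose most, by 4.10 ± 0.57 both in dSCs (edgeR adjusted p = 2.5e-05) and in bSCs (edgeR adjusted p = 1.6e-05) of days 4 to 10, and without the 4 libraries the values were 4.03 (edgeR adjusted p = 0.000922) and 4.02 (edgeR adjusted p = 0.000638).

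Among 15 further membrane proteins, 2 rose in pooled dSCs: Cd68, a macrophage marker, by 3.08 ± 0.71 (edgeR adjusted p = 0.0254) and Cd63, a tetraspanin, by 1.33 ± 0.22 (edgeR adjusted p = 0.00353). In bSCs Cd63 rose by 1.42 ± 0.22 (edgeR adjusted p = 0.00106) and Abca2 and Ctns fell. The single nerves held Cd68 and Ctss high from the first days, with log2 fold changes of 3.29 ± 0.76 (edgeR adjusted p = 0.0235) and 4.03 ± 0.59 (edgeR adjusted p = 0.000307) in dSCs of days 1 and 2, when none of the 37 members tested was called. These were, without the 4 libraries, 3.49 (edgeR adjusted p = 0.0214) and 4.30 (edgeR adjusted p = 0.00486). In that fit the member Ctsc was called higher too, at 1.96 (edgeR adjusted p = 0.0368).

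The V-ATPase pumps protons into the lysosome. Of its 15 tested genes 1 was called in pooled dSCs, Atp6v0d2, a subunit isoform known from osteoclasts and macrophages. It was at 0, 0, 1.51 and 0.807 CPM in iSCs, at 45.1, 174, 222 and 107 CPM in dSCs and at 105, 23.6, 16.2 and 18.2 CPM in bSCs, with no overlap between the cut nerve and iSCs. The remaining 14 were not called, and the median over the 15 was 0.52. In bSCs Atp6v0e was called as well, with a log2 fold change of 1.01 ± 0.22 (edgeR adjusted p = 0.007).

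Among 6 genes of mannose 6-phosphate sorting, which sends hydrolases to the lysosome, Igf2r, the large receptor, rose by 1.11 ± 0.29 in pooled dSCs (edgeR adjusted p = 0.0426) and by 1.08 ± 0.29 in bSCs (edgeR adjusted p = 0.0252). Of the 18 genes of MiT factors and mTORC1 signalling at the lysosome, the relatives and regulators of Tfeb, 0 were called in pooled dSCs by edgeR, with 2 higher and 2 lower at an unadjusted p under 0.05 and 1 called by DESeq2. In pooled bSCs 2 were called lower against iSCs, Flcn at -1.34 ± 0.38 (edgeR adjusted p = 0.0319) and Rragd, which was at 5.93, 5.54, 0.454 and 0.565 CPM in iSCs and at 0 in all 4 bSC libraries. In the single nerves of days 4 to 10, with all libraries, Rheb and Rraga were called lower against iSCs. Their values were -1.17 ± 0.33 (edgeR adjusted p = 0.0211) and -1.20 ± 0.30 (edgeR adjusted p = 0.0107) in dSCs. In bSCs they were -1.13 ± 0.33 (edgeR adjusted p = 0.0245) and -1.15 ± 0.30 (edgeR adjusted p = 0.0122). Values for these genes without the 4 libraries are not given here. In the pools neither was called against iSCs. There Rraga was at 51.9 to 129 CPM in iSCs, 102 to 174 CPM in dSCs and 147 to 173 CPM in bSCs. Rheb was at 139 to 185, 75.0 to 130 and 144 to 236 CPM, and was called higher in bSCs than in dSCs, at 0.95 ± 0.24 (edgeR adjusted p = 0.0376). Of 30 further autophagy genes, 0 were called in pooled dSCs by edgeR or DESeq2, with 2 lower at an unadjusted p under 0.05 and a median of -0.28. In pooled bSCs 2 fell, Rb1cc1, a partner of Ulk1, at -1.77 ± 0.42 (edgeR adjusted p = 0.0122) and the mitophagy receptor Bnip3, at -1.64 ± 0.51 (edgeR adjusted p = 0.0480). Fundc1, another mitophagy receptor, was called lower in single-nerve dSCs of days 4 to 10, at -1.42 ± 0.40 (edgeR adjusted p = 0.0230), a call that rests on the 4 libraries, since the value without them was -0.029 (edgeR adjusted p = 0.984). Of the 7 tested genes of Rab7 and the HOPS complex, which fuse late endosomes with lysosomes, 0 were called in pooled dSCs or bSCs by edgeR or DESeq2, with 0 at an unadjusted p under 0.05 in dSCs and 1 higher and 1 lower in bSCs.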

How the data were processed

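Schwann cells were sorted by tdTomato from intact, distal and bridge nerve, and Smart-seq2 RNA-seq was done on 12 pooled-nerve and 35 single-nerve libraries. The authors aligned reads to mm9 with TopHat2 2.0.11 and counted them per gene with HTSeq, as named in the submitters' processing notes, and deposited raw counts. The gene models behind the counts are not given in the sources used here. Rat culture files were not used here.

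Rows that name no gene and spike-ins were left out. The category of reads on no gene held 52.5% to 60.5% of uniquely aligned reads, and reads on genes made up 39.1% to 47.1%. Lanes of 1 library were summed. Counts of lanes differed by chi-square per degree of freedom of 1.11 to 1.28, against 42.5 to 879 for replicates, and no pair of libraries differed by as little as lanes did. Depth was 11435463 to 22617054 counts (median 13527755) in the pools and 9240883 to 22426128 (median 13149913) in the single nerves. PCR reads without molecular identifiers are not independent molecules, and lowly counted genes are the least precise.

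Each experiment was fitted on its own, in R 4.3.3 with the quasi-likelihood test of edgeR 4.0.16 (limma 3.58.1) and TMM scaling, over 13751 genes kept by filterByExpr in the pools and 7171 genes with at least 100 counts in 85% of the single-nerve libraries. Each group was a level of the model, days were averaged with equal weight, and F tests were used for the days and for region by day. The SE of a log2 fold change was taken as its size divided by the square root of F. Groups came from the labels. Pairs came from the animal or pool in the labels, and 1 bridge library of day 10 whose labels conflict was left out of the animal pairs. Alternatives were DESeq2 1.42.0 and its size factors, another count filter, only the groups compared, a lane covariate, replicate blocks, leaving out each library, and leaving out the 4 libraries that stood apart, the last chosen after seeing the data. The fits were tested on simulated data.

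The members and lists were chosen with earlier results of these data known. Values in every library are given for the 12 members with the lowest adjusted p among those called, and other members are given by range and count. From each further pathway list up to 2 called genes per direction were named, and Ctss, Cd68, Atp6v0d2 and the markers because they bear on a member's values. Gene models of mm9 gave positions and exon lengths. The correlation of deviations from group means between samples of the same pool was -0.129 to 0.0802 in 10 pairs. That of bridge and distal nerves of the same animal averaged 0.155 in the 10 pairs used (-0.294 to 0.664), against -0.0639 for other pairs of the same day. Some genes of the further lists are not reported here.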

Additional observations from a re-analysis of the deposited data

Results flagged for a closer look

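In groups of 4 to 10 libraries, the highest or lowest value was compared with the rest for each of the 12 members named in full. Of 48 tests, each of 1 member in 1 group, 5 found a value far from the others. Chance flags about 1 in 20 tests, here 2.4, but tests of the same group share libraries and are not independent. Hexa in pooled iSC replicate 5 was at 412 CPM, against 182 to 211 CPM in the other 3 libraries, and that library also held the highest macrophage marker sum among the pooled iSCs. Gusb in pooled bSC replicate 1 was at 187 CPM, below the 253 to 258 CPM of the other 3. In single-nerve iSC replicate 0, which is among the 4 libraries that stood apart, Gabarapl1 was at 581 CPM against 154 to 241 CPM in the others, and Hexa was at 444 CPM against 253 to 287 CPM. Ctsl in single-nerve iSC replicate 1, also among the 4, was at 1671 CPM against 564 to 821 CPM.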

How the results depend on the processing

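No called member changed sign under any alternative run. Ctsd, Gusb and Psap in pooled dSCs, Ctsd and Gusb in pooled bSCs and Ctsl and Psap in bSCs against dSCs were called in all 14 alternatives of their comparison, and Ctsb, Ctsd, Gabarapl1, Gusb and Hexa in single-nerve dSCs and Ctsc, Ctsd, Gabarapl1 and Gusb in single-nerve bSCs in all 22.

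With the nerve pool as a replicate block, 3 members were called in dSCs against iSCs (from 11), 2 in bSCs against iSCs (from 7) and 2 in bSCs against dSCs (from 4). With the animal as a block, 2 were called in single-nerve bSCs against dSCs (from 0). The numbers that single-nerve labels of different animals share went with mean correlations of 0.0177 for equal and -0.00234 for unequal numbers, and a block on them called 13 members in single-nerve dSCs (from 12) and 14 in bSCs (from 10).

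DESeq2 called 13 members in pooled bSCs against iSCs, 10 in bSCs against dSCs, 1 in dSCs of days 1 and 2 and 1 for the dependence on day, and its adjusted p stayed missing where it gave none. Leaving out the 4 libraries that stood apart, chosen after seeing the data, gave 7 called members in single-nerve dSCs of days 4 to 10, 5 in bSCs and 1 in dSCs of days 1 and 2. The cause of these shifts was not tested.

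Leaving out each library in turn gave 6 to 12 called members in pooled dSCs against iSCs, with 6 without iSC replicate 1 and 7 without iSC replicate 2, iSC replicate 4 or dSC replicate 2. It gave 3 to 8 in bSCs against iSCs, with 3 without iSC replicate 1 or 2 and 4 without iSC replicate 4 or bSC replicate 3, and 2 to 6 in bSCs against dSCs, with 2 without bSC replicate 3 or 5 or dSC replicate 2. In the single nerves the ranges were 8 to 13 in dSCs and 7 to 11 in bSCs of days 4 to 10, 0 to 1 in dSCs of days 1 and 2 (1 without iSC replicate 0 or day 1 replicate 0), and 0 to 0 for bSCs against dSCs, for the day and for region by day.

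With 4 libraries a group in the pools, the spread between libraries limits which differences can be called. The sort left RNA of macrophage markers in every group, and its part in the members' levels was not tested. The pooled and single-nerve libraries were filtered and fitted separately, so that levels are compared within an experiment only.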
